A study of Mus musculus with 16 samples.

Results

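The genes of the NRF2, glutathione and antioxidant systems were described in livers and liver tumours of mice that lost Axin1 in hepatocytes. The set was a list of 44 gene symbols, and 43 of them matched a row of the deposited expression table of 23279 genes; G6pdx was not analysed here. Of the 43 members, 17 encode glutathione S-transferases and 26 encode regulators, enzymes or transporters. RNA of whole tissue of male mice, 16 months old, was measured on 1 array per sample. Axin1-deleted mice were bred from Axin1 fl/fl mice and Alfp-Cre mice, whose recombinase is expressed in embryonic hepatocytes, so the deletion concerns that lineage and not all liver cells. The groups were liver of 3 control mice (10, 11 and 12) described as not deleted, adjacent non-tumoral liver of 5 Axin1-deleted mice (121, 123, 124, 81 and 1931), and 8 tumours of 6 Axin1-deleted mice (121, 123, 124, 81, 90 and 93). Which floxed or Cre alleles the controls carried is not stated in the labels. Mouse 121 gave 3 tumours (121, 121_T2 and 121_T3), which were averaged in the main fit so that each mouse counted once there. Some alternative fits did not average them. The fit of 8 separate tumours and the random-block fit entered all 3 as single arrays. Another alternative kept only the unnumbered tumour of this mouse. Mice 121, 123, 124 and 81 gave both a tumour and adjacent liver.

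NRF2, encoded by Nfe2l2, is a transcription factor that KEAP1 holds in the cytoplasm and marks for degradation. Electrophiles, oxidants or the adaptor p62 (Sqstm1) release it, and it then binds antioxidant response elements together with small MAF proteins. Its targets include enzymes that make glutathione, supply NADPH, reduce thioredoxin and conjugate foreign compounds, and liver is rich in most of them. The cystine carrier Slc7a11 is a target of NRF2 and also of ATF4, the factor of the amino acid response.

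Axin1 itself lay between 5.07 and 5.48 (log2) in controls, 3.90 and 4.39 in adjacent livers and 3.95 and 4.81 in tumours, so the control arrays lay above all others. Medians of the arrays ran from 4.37 to 4.50, and precision is limited by how few arrays there are. All values are log2, a difference of 1 is 2-fold, and values near 3 or 4 lie at or below the array medians. In whole tissue, fewer cells of a type and less RNA per cell cannot be told apart. The mean over 6 hepatocyte markers lay between 11.42 and 11.88 on every array. The mean over 8 pericentral hepatocyte markers (Glul, Cyp2e1, Cyp1a2 and others) was 8.34 to 8.89 in controls, 8.62 to 8.86 in adjacent livers and 6.60 to 8.41 in tumours. That over 6 periportal markers was 9.44 to 9.80, 8.86 to 9.66 and 7.89 to 9.46. Control 10 stood apart in a mean over 8 neutrophil markers (6.29, against 3.76 and 3.56 in the other controls) and over 7 macrophage markers (8.78, against 6.41 and 5.60).

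Promoter sequence was read from RefSeq (GRCm38.p6) for the 38 members that had a window of 250 bases before to 50 bases after the start. Both strands were searched for the core of the antioxidant response element (TGACNNNGC), for a longer NRF2-MAF motif (TGANTCAGC) and for the amino acid response element (TGATGCAA). The first 2 motifs can share a match, as they did in Me1 and Prdx1. The core stood in the windows of 10 members (26.3%), against 15.0% of 17519 genes with a window. The longer motif stood in those of 5 members (13.2%), namely Gstp1, Me1, Osgin1, Prdx1 and Srxn1, against 1.38% of the genes. The amino acid response element stood in Slc7a11 alone among members, with 2 matches that start 66 and 47 bases before the transcription start, against 0.913% of the genes. A match is a run of letters and no measured binding site. Below are the last 150 bases before the start of the 4 members that had the longer motif or the amino acid motif and differed between tumour and adjacent liver at an unadjusted p under 0.05, with matches in capitals; the core match of Srxn1 lies after the start and is not shown. They lie at chr3:50443614-50443763 on the minus strand, chr2:152105374-152105523 and chr8:119436997-119437146 on the plus strand and chr19:4037913-4038062 on the minus strand, in this order.
Slc7a11: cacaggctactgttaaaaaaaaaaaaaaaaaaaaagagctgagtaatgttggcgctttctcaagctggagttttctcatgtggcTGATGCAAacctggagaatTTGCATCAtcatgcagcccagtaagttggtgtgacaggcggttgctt
Srxn1: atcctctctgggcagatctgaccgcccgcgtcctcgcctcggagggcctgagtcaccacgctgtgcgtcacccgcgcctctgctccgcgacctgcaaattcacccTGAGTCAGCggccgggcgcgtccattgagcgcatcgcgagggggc
Osgin1: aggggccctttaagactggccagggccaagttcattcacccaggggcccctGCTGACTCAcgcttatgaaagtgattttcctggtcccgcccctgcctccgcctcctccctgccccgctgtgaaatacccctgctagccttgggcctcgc
Gstp1: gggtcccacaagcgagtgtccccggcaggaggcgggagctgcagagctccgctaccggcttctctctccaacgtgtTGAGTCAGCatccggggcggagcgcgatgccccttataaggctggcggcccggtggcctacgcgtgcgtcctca

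The first comparison asked which members differ between the tumours and the non-tumoral liver next to them. Of the 43 members, 1 passed an adjusted p of 0.05 (limma, Benjamini-Hochberg over all 23279 genes), against 0.155% of all genes (36). This was Gss, glutathione synthetase, which rose. At an unadjusted p under 0.05, 13 members (30.2%) were higher in tumours, against 6.95% of all genes, and 4 members (9.30%) were lower, against 8.32% of all genes. The higher ones were Nfe2l2, Nqo1, Osgin1, Slc7a11, Gclc, Gss, Pgd, Tkt, Srxn1, Gpx2, Gpx3, Gstm4 and Gstp1. The lower ones, Gstt2, Gstk1, Gstz1 and Mgst1, were all transferases. All genes include many dim ones: a filter on dim genes kept 41 of the 43 members and 12787 of the 23279 genes. In the fit with that filter, 10.5% of the genes kept were higher and 11% lower at an unadjusted p under 0.05. Other shares over all genes given here also include the dim genes. Over mice, the groups did not overlap for Slc7a11, Gss and Srxn1, which were higher (6.98% of members, 1.12% of all genes), and for Gstz1, which was lower (1.11% of all genes). The median difference was 0.32 over all members, -0.25 over the 17 transferases, 0.41 over the 26 others and -0.03 over all genes. The mean over 8 stellate cell and fibroblast markers was 5.93 to 6.03 in controls, 5.54 to 6.58 in adjacent livers and 6.01 to 6.84 in tumours, and 5 of the 8 were higher and 2 lower in tumours than in adjacent liver at an unadjusted p under 0.05 (median 0.66). Of 7 macrophage markers, 0 were higher and 2 lower (median -0.68), with means of 5.60 to 8.78, 5.79 to 6.96 and 4.92 to 6.89. The part of these cells in the counts was not tested. The count over all genes changed with the mouse as a block, to 206 as a random and 0 as a fixed replicate block. Without tumour 124 the median member difference was 0.16, and 9 members were lower at an unadjusted p under 0.05 (8.47% of all genes). That lower count was 2 without tumour 123 (6.61%) or without adjacent liver 1931 (6.87%), and 7 without tumour 93 (9.59%).

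**Figure D1:**
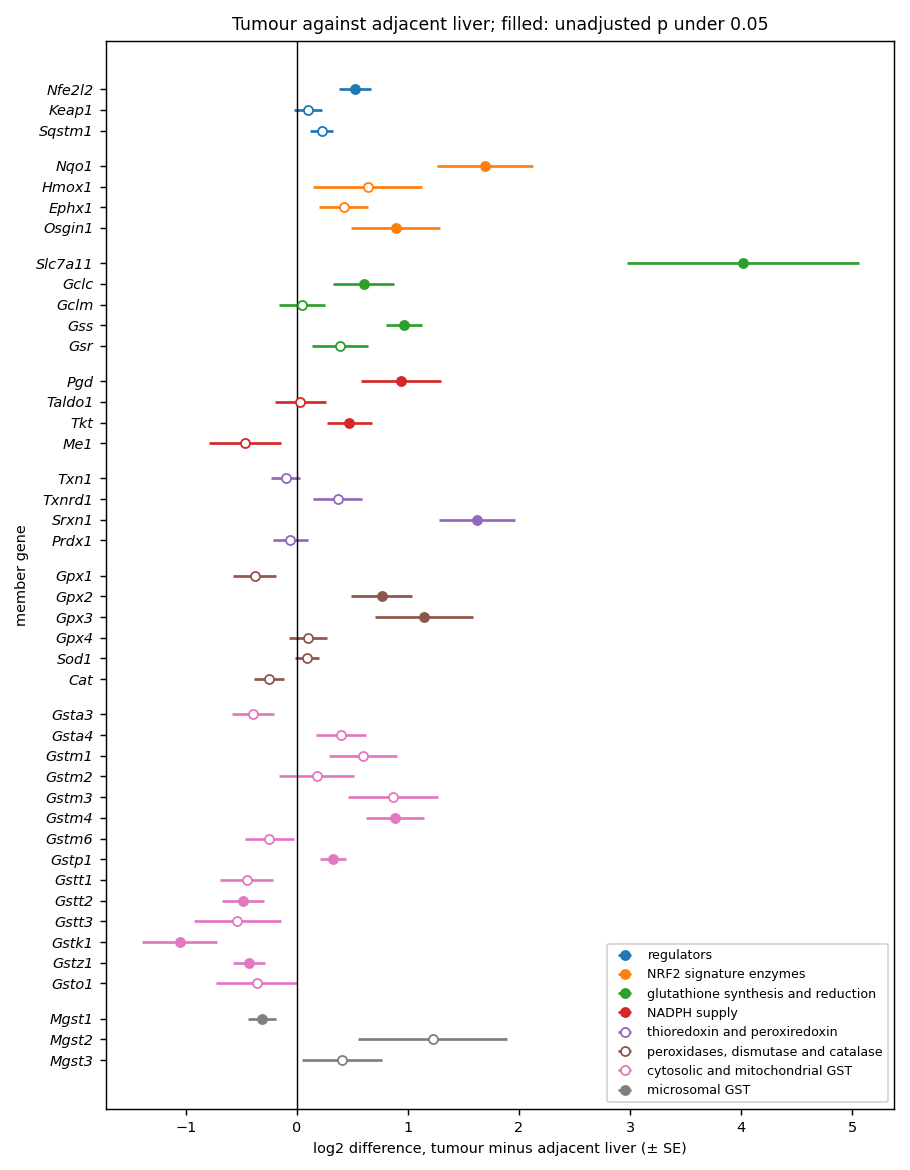
Log2 difference of each member between tumours (6 mice) and adjacent liver (5 mice), with the SE of the limma fit as bars and colours for the 8 roles; filled points have an unadjusted p under 0.05. Slc7a11 lies farthest to the right at 4.01, and Gstk1 farthest to the left at -1.05.

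Among the regulators, Nfe2l2 was higher in tumours, while its inhibitor Keap1 differed little. Nfe2l2 was 8.76, 8.84 and 8.47 in controls, 8.91, 8.56, 8.31, 9.04 and 8.77 in adjacent livers 121, 124, 123, 1931 and 81, and 8.91 to 9.72 in the tumours, with a median of 9.30. Tumour 124 was the lowest of the 8 tumours at 8.91, and tumour 121_T2 the highest. The groups overlapped. The difference from adjacent liver was 0.52 ± 0.15 (SE; adjusted p = 0.119), and tumours of 6 of 6 mice lay above the adjacent mean. Keap1 differed by 0.10 ± 0.12 (adjusted p = 0.753), with tumours between 5.17 and 5.74 and adjacent livers between 5.02 and 5.56. Sqstm1, the autophagy adaptor that binds KEAP1, lay between 9.69 and 10.17 in tumours, 9.46 and 9.88 in adjacent livers and 9.53 and 9.65 in controls. It was 0.22 ± 0.10 higher than in adjacent liver (adjusted p = 0.330).

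Nqo1, a quinone reductase widely used as a readout of NRF2, had the largest difference of the signature enzymes. It was 5.72, 5.14 and 4.76 in controls and 6.01, 6.44, 5.23, 5.70 and 5.74 in adjacent livers 121, 124, 123, 1931 and 81. Tumour 124 reached 9.27, tumours 121_T2 and 123 reached 8.31 and 7.82 with tumour 81 between them, and tumours 90, 121, 121_T3 and 93 lay at 6.71, 6.70, 6.40 and 6.19. Every tumour thus lay above every control, while tumours 121_T3 and 93 lay below adjacent liver 124. The difference from adjacent liver was 1.70 ± 0.43 (adjusted p = 0.0929), and 1.96 without tumour 93 (adjusted p = 0.0227). Of 24 alternatives only that 1 passed, and the adjusted p (limma) reached 0.224 among them. Osgin1, a growth inhibitor induced by oxidative stress, was 0.89 ± 0.40 higher than in adjacent liver (adjusted p = 0.308) but 0.03 ± 0.47 from controls (adjusted p = 0.991). Its lowest array of all was tumour 81 at 7.47, and the other tumours lay between 9.19 and 10.21. Ephx1, the microsomal epoxide hydrolase, differed by 0.42 ± 0.22 (adjusted p = 0.385), with tumours 121_T2 and 124 highest at 11.28 and 11.12. Hmox1, haem oxygenase, differed by 0.64 ± 0.49 (adjusted p = 0.590). Its controls spread from 6.36 to 9.59, with control 10 the highest of all 16 arrays; that array also had the highest neutrophil and macrophage marker means, whose part was not tested.

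Slc7a11 imports cystine, the source of the cysteine in glutathione, in exchange for glutamate. It was 2.76, 2.80 and 2.73 in controls and 2.87, 2.80, 3.05, 2.90 and 3.21 in adjacent livers 121, 124, 123, 1931 and 81, which is below the array medians throughout. Tumours 124, 81, 123 and 90 reached 10.50, 9.14, 8.25 and 7.01, whereas tumours 121_T3, 93, 121 and 121_T2 had 4.29, 3.51, 3.42 and 2.67. Thus 4 tumours lay at 7.01 or above and 4 at 4.29 or below, and tumour 121_T2 lay below every liver. The mean difference of 4.01 ± 1.04 from adjacent liver (adjusted p = 0.0929) was the largest log2 increase in the deposited values of all 23279 genes, with an SD of 2.94 over the 6 tumour mice against 0.17 over the adjacent livers. RMA compresses differences that start from such low values, so no fold is given. Without tumour 93 the difference was 4.71 (adjusted p = 0.0201). No other of the 24 alternatives passed, and the adjusted p (limma) reached 0.207 among them.

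Gss, which joins glycine to complete glutathione, had the smallest adjusted p of the members. It was 7.67, 8.12 and 7.83 in controls and 8.10, 7.79, 7.53, 7.94 and 7.68 in adjacent livers 121, 124, 123, 1931 and 81. In tumours 121_T2, 90, 124, 81, 123, 121, 93 and 121_T3 it was 9.33, 9.18, 8.92, 8.88, 8.78, 8.49, 8.23 and 8.10. Of single arrays, tumour 121_T3 alone did not clear the livers, and it shared its level with adjacent liver of the same mouse. Gss rose by 0.96 ± 0.16 (1.95-fold; adjusted p = 0.0396), from 7.81 ± 0.22 (SD, n = 5) to 8.77 ± 0.32 (SD, n = 6). The call was kept without tumour 90, tumour 93 or adjacent liver 121 and was lost without any of the other 11 mice, counted per tissue (adjusted p 0.0514 to 0.157). It was 0.113 with mouse as a fixed replicate block and 0.0385 with a random one.

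Gclc, the catalytic subunit of glutamate-cysteine ligase, the rate-limiting step of glutathione synthesis, was 0.60 ± 0.27 higher (adjusted p = 0.311). Tumour 124 had 11.37, the other tumours lay between 9.02 and 10.09, and the adjacent livers between 8.84 and 9.84. Its modifier subunit Gclm differed by 0.05 ± 0.21 (adjusted p = 0.945) and was highest in tumours 124 and 121_T2, at 9.84 and 9.59. Gsr, which reduces oxidised glutathione with NADPH, differed by 0.39 ± 0.25 (adjusted p = 0.497), with the same tumours highest at 9.30 and 8.64 and the other 6 between 7.51 and 8.04. In each of these 3 genes, 1 or 2 of the 8 tumours lay apart from the rest.

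Of the 4 genes measured for pentose phosphate enzymes and malic enzyme, Pgd and Tkt were higher at an unadjusted p under 0.05. Pgd, 6-phosphogluconate dehydrogenase of the pentose phosphate pathway, was 7.84, 7.11 and 6.75 in controls and 7.14 to 7.61 in adjacent livers. It was 9.74 in tumour 124, 8.84 in tumour 123, 8.53 in tumour 81, 8.34, 8.11 and 7.87 in tumours 121, 121_T2 and 121_T3, and 7.39 and 7.36 in tumours 93 and 90. The last 2 lay within the range of the livers, and the difference was 0.93 ± 0.36 (adjusted p = 0.226). Tkt, transketolase, differed by 0.47 ± 0.20 (adjusted p = 0.271), with tumours 124 and 123 highest at 9.54 and 9.01. Taldo1, transaldolase, differed by 0.03 ± 0.23 (adjusted p = 0.966), with tumour 124 the highest (8.63) and tumour 90 the lowest (6.79) of all arrays. Me1, malic enzyme, differed by -0.47 ± 0.32 (adjusted p = 0.538), again with tumours 124 and 90 at the ends (9.11 and 6.86).

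In the thioredoxin group, sulfiredoxin (Srxn1), which repairs overoxidised peroxiredoxins, stood out. It was 7.22, 6.88 and 6.75 in controls and 7.64, 7.23, 6.82, 7.26 and 6.68 in adjacent livers 121, 124, 123, 1931 and 81. Tumours 124, 81 and 123 reached 9.91, 9.59 and 8.98, and tumours 121_T2, 121, 90, 121_T3 and 93 had 8.36, 8.12, 8.05, 7.98 and 7.81. All 8 tumours lay above all 8 livers, by a difference of 1.62 ± 0.35 (3.08-fold; adjusted p = 0.0643). With mouse as a random replicate block the difference was 1.51 and passed (adjusted p = 0.0425), and it also passed without tumour 90 or without tumour 93 (0.0444 and 0.0146). Srxn1 passed in 6 of 24 alternatives, and the adjusted p (limma) reached 0.171 among them. Thioredoxin (Txn1), thioredoxin reductase (Txnrd1) and peroxiredoxin 1 (Prdx1) differed by -0.10, 0.37 and -0.06, with adjusted p of 0.769, 0.465 and 0.903. Txnrd1 was 9.21 in tumour 124 and 8.50 or lower in all others, and Txn1 and Prdx1 were lowest of all arrays in tumour 90, at 7.75 and 9.43.

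**Figure D2:**
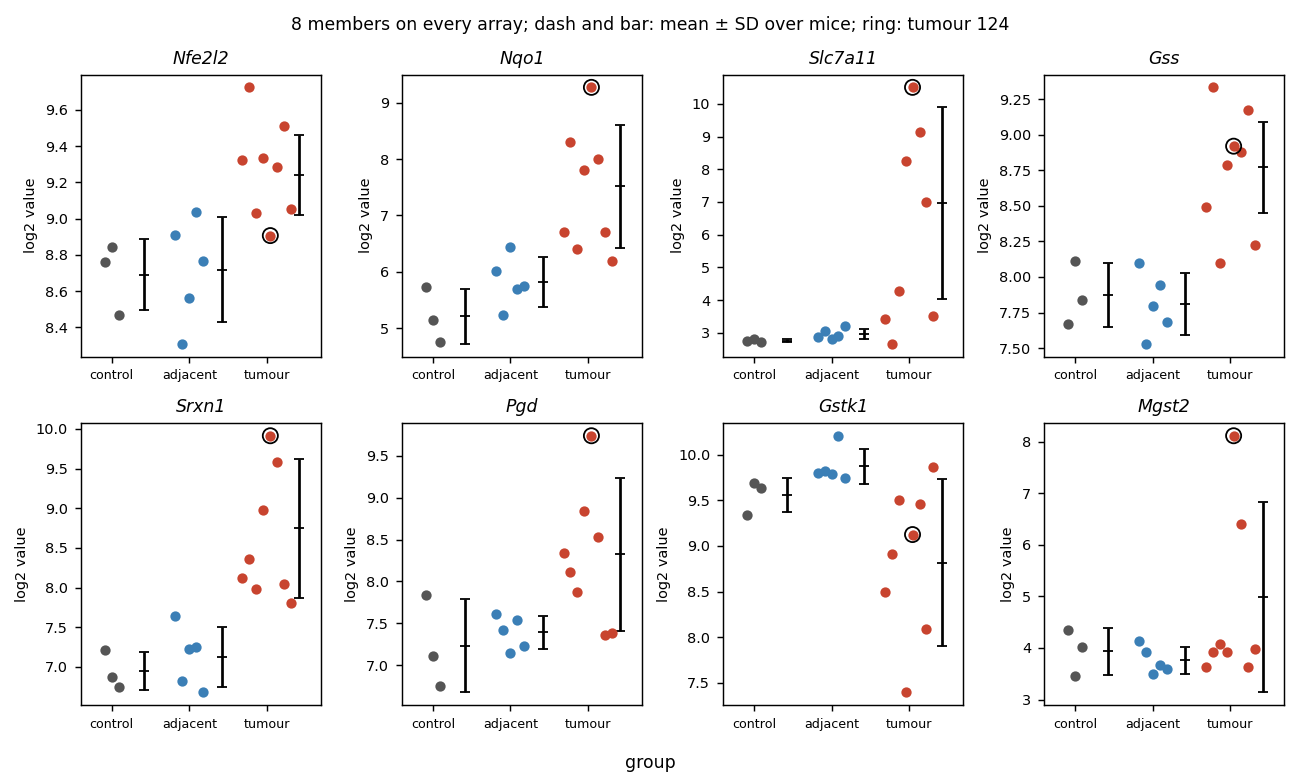
Log2 values of Nfe2l2, Nqo1, Slc7a11, Gss, Srxn1, Pgd, Gstk1 and Mgst2 on all 16 arrays (points; groups on the x axis), with the mean ± SD over mice as a dash and bar and tumour 124 ringed. The 8 tumours lie above the livers for Srxn1, split into high and low values for Slc7a11, and only tumours 124 and 81 are raised for Mgst2.

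The peroxidases, dismutase and catalase gave no common direction. The extracellular peroxidase Gpx3 was between 4.04 and 5.37 in adjacent livers and between 4.41 and 7.66 in tumours, a difference of 1.14 ± 0.44 (adjusted p = 0.229). It was highest in tumours 81 and 121_T3 (7.66 and 7.65), followed by tumours 121 and 90 (6.52 and 6.16), and lowest in tumours 93 and 121_T2 (4.44 and 4.41). The same 2 highest tumours had the highest mean over 5 cholangiocyte markers (4.94 and 5.14, against 3.81 to 4.27 on all other arrays). Tumours 121 and 90 had cholangiocyte means of 4.27 and 4.02. Tumours 81 and 121_T3 were also the highest tumours in the mean over 7 lymphocyte markers (4.38 and 4.88), with adjacent liver 121 at 4.99. The part of these cells in the Gpx3 values was not tested. Gpx2, an epithelial peroxidase, was at most 3.35 in all livers, 5.03 in tumour 81 and 4.26 in tumour 121, and differed by 0.76 ± 0.28 (adjusted p = 0.198). Gpx1, the main cytosolic peroxidase of liver, and catalase (Cat) were -0.38 ± 0.19 and -0.25 ± 0.14 from adjacent liver (adjusted p = 0.367 and 0.397), with Gpx1 at 10.82 in tumour 90 and 11.43 or higher elsewhere. Gpx4 and Sod1 differed by 0.10 and 0.09 (adjusted p = 0.833 and 0.749). The Gpx4 values lay between 3.85 and 4.99 on every array, near the array medians, where RMA compresses differences.

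The glutathione S-transferases did not share a direction. None passed the adjusted p of 0.05 in limma (smallest 0.129). At an unadjusted p under 0.05, 2 of the 17 were higher and 4 lower, against 6.95% and 8.32% of all genes. The mu-class genes Gstm1, Gstm2, Gstm3 and Gstm4 had differences of 0.59, 0.18, 0.86 and 0.89, Gsta4 and Gstp1 of 0.40 and 0.32, and Gstm6 of -0.25. Gstt1, Gstt2, Gstt3, Gstk1, Gstz1, Gsto1 and Gsta3 all had differences below 0, from -0.36 to -1.05. Transferases of a class are alike in sequence, and how far a probe set of one also reads another was not tested.

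Gstm4 had the smallest adjusted p among transferases. It was 7.58, 7.39 and 7.47 in controls, 7.62, 7.71, 7.86, 7.63 and 7.20 in adjacent livers 121, 124, 123, 1931 and 81, and 9.73 in tumour 124. Tumours 121_T2, 81, 93, 123 and 121 had 8.94, 8.65, 8.33, 8.18 and 8.17, and tumours 90 and 121_T3 had 7.79 and 7.69. The latter 2 overlapped with the livers; the difference was 0.89 ± 0.26 (adjusted p = 0.129). Gstp1, the pi-class enzyme, was among the brightest members, at 11.75 to 12.13 in adjacent livers and 12.06 to 12.62 in tumours. It was 0.32 ± 0.12 higher in tumours than in adjacent liver (adjusted p = 0.197), while controls at 12.18, 12.59 and 12.57 lay within the range of tumours.

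Gstk1, the mitochondrial and peroxisomal kappa-class enzyme, had the largest decrease of all members. It was 9.34, 9.69 and 9.64 in controls and 9.80, 9.79, 9.82, 10.21 and 9.74 in adjacent livers 121, 124, 123, 1931 and 81. In tumours 123, 90, 121, 121_T2 and 124 it was 7.40, 8.09, 8.50, 8.91 and 9.12, and in tumours 81, 121_T3 and 93 it was 9.46, 9.50 and 9.87. Tumour 93 alone overlapped with the adjacent livers, and the difference was -1.05 ± 0.34 (adjusted p = 0.154). Without tumour 93 the difference was -1.26 (adjusted p = 0.0445), and the adjusted p (limma) reached 0.300 among the 24 alternatives. Gstz1, which also serves in tyrosine breakdown, lay between 10.35 and 10.52 in adjacent livers. Its tumours ran from 9.39 (tumour 90) to 10.38 (tumour 121_T3, within the range of adjacent livers), a difference of -0.43 ± 0.15 (adjusted p = 0.171). Gstt2 and Mgst1 were -0.48 ± 0.19 and -0.31 ± 0.13 from adjacent liver (adjusted p = 0.241 and 0.246). Tumours 123 and 90, with the lowest Gstk1 and transferase means of -0.10 and -0.33 from controls, also had low periportal (7.89 and 7.90) and pericentral (6.73 and 6.72) marker means. Tumour 121 had a pericentral mean of 6.60 with a transferase mean of 0.20; the part of zonal markers in these differences was not tested.

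Of the microsomal transferases, Mgst2 was raised in 2 tumours only. It was 4.35, 3.45 and 4.02 in controls, 3.49 to 4.13 in adjacent livers, 8.12 in tumour 124, 6.40 in tumour 81 and 3.64 to 4.07 in the other 6 tumours. The difference in means was 1.22 ± 0.67 (adjusted p = 0.413), with an SD of 1.84 over the 6 tumour mice. Mgst3 was 6.73, 7.63 and 7.68 in controls, 7.88 to 8.21 in adjacent livers and 7.44 to 9.79 in tumours, again highest in tumour 124.

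**Figure D3:**
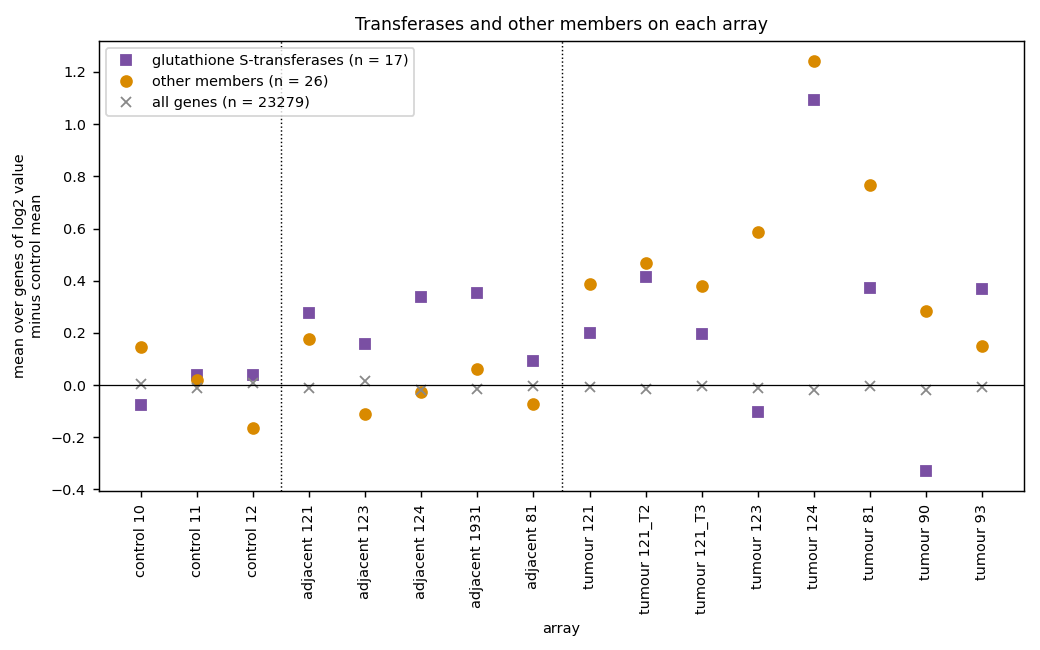
Mean over genes of the log2 value minus the control mean on each of the 16 arrays, for the 17 transferases (squares), the 26 other members (circles) and all genes (crosses). Tumour 124 is highest for both sets (1.09 and 1.24), and in tumours 123 and 90 the transferases lie below 0 (-0.10 and -0.33) and the others above it (0.59 and 0.28, with medians over the 26 genes of 0.17 and 0.095).

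The second comparison set adjacent liver of Axin1-deleted mice against control liver. No member passed the adjusted p of 0.05, nor did any gene (0%; limma); 1 member was higher at an unadjusted p under 0.05 (Gstt2; 1.61% of all genes) and 1 was lower (Gstp1; 2.94% of all genes). Over mice, 6 members lay above the controls without overlap (14.0%, against 2.18% of all genes), and 5 of these were transferases: Gsta3, Gstt2, Gstk1, Gstz1 and Mgst3, together with Slc7a11, whose highest control and lowest adjacent liver both read 2.80, below the array medians. One member, Gstp1, lay below them (2.04% of all genes). Gstt2 was 7.67 to 8.17 in adjacent livers and 6.64 to 7.51 in controls, a difference of 0.66 ± 0.23 (adjusted p = 0.999). Gstp1 differed by -0.46 ± 0.14 (adjusted p = 0.999). The median difference was 0.30 over the transferases, 0.03 over the other members and -0.01 over all genes. In a fit of these 2 groups alone, 7 members were higher and 2 lower at an unadjusted p under 0.05, against 3.02% and 2.62% of all genes. Without control 10 no member was higher at that level (1.46% of all genes). Without tumour 124 or tumour 81, 2 members were higher (1.62% and 1.93%), and without tumour 81, 2 were lower (2.97%).

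The 4 transferases that lay above the controls in adjacent liver and averaged lower in tumours than in adjacent liver were Gsta3, Gstt2, Gstk1 and Gstz1. Against controls, their tumours differed by -0.10, 0.17, -0.74 and -0.24. Both comparisons share the adjacent livers, so their opposite directions are not independent.

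The third comparison set tumours against control liver. No member passed the adjusted p of 0.05 (smallest 0.0992, Gss), against 0.0258% of all genes (6, or 24 with mouse as a random replicate block). At an unadjusted p under 0.05, 13 members (30.2%) were higher, against 5.65% of all genes, and none was lower, against 6.88% of all genes. They were Nfe2l2, Sqstm1, Nqo1, Slc7a11, Gss, Pgd, Tkt, Srxn1, Gpx3, Gsta4, Gstm3, Gstm4 and Mgst3. In the fit with the filter on dim genes, 8.9% of the genes kept were higher and 7.01% lower at that level. This comparison shares its tumours with the first. Over mice, 10 members lay above the controls without overlap (23.3%, against 2.11% of all genes), and none lay below (3.08% of all genes). The 10 were Nfe2l2, Sqstm1, Nqo1, Slc7a11, Gss, Tkt, Srxn1, Gsta4, Gstm1 and Gstm4. Nqo1 was 2.31 ± 0.51, Srxn1 1.80 ± 0.40, Gss 0.90 ± 0.19 and Slc7a11 4.21 ± 1.22 higher than in controls (adjusted p = 0.103, 0.106, 0.0992 and 0.173). Without tumour 93 these 4 genes passed (adjusted p = 0.0267, 0.0314, 0.0187 and 0.0458, in the same order). Each passed in that 1 of 23 alternatives only, and the adjusted p (limma) reached 0.385, 0.385, 0.333 and 0.451. The median member difference was 0.22, against -0.04 over all genes; it was 0.11 without tumour 124 and 0.34 without tumour 90. Without control 12, 8 members were higher (3.87% of all genes). Without tumour 124 or tumour 93, 2 members were lower (7% and 8.04%), and without tumour 81, 1 member was lower (6.73%).

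**Figure D4:**
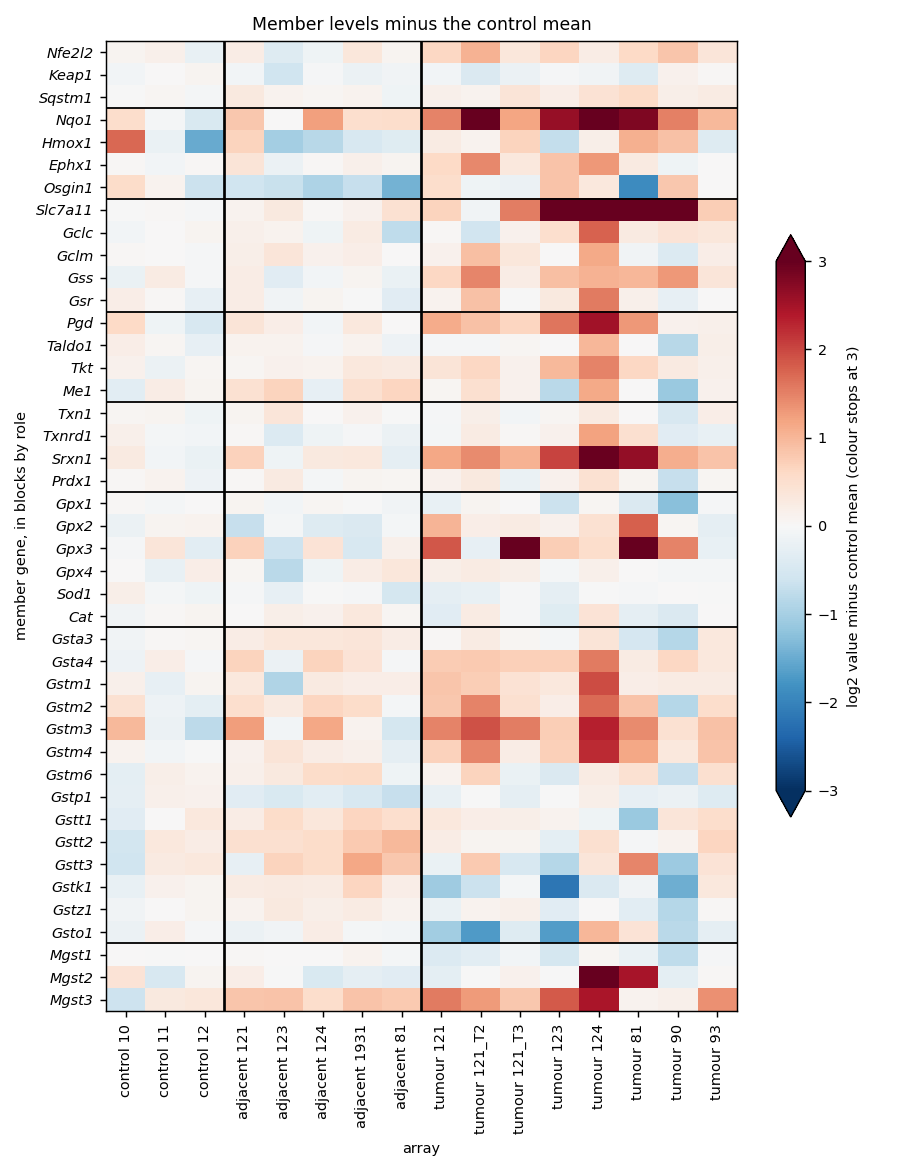
Log2 value minus the control mean for each of the 43 members (rows, in blocks by role) on each of the 16 arrays (columns); red is higher, blue lower, and the colour stops at 3. Tumour 124 is the reddest column, and Slc7a11 is 4.24 or more above the control mean in tumours 123, 124, 81 and 90 and 1.53 or less above it in the other 4 tumours.

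Tumour by tumour, tumour 124 had the highest levels of the set. It was the highest of the 8 tumour arrays for 25 of 43 members (58.1%; 9.76% of all genes), and the lowest for 1, Nfe2l2. Of the 25, 11 were transferases. This tumour was known to stand apart before the counts were made, so those here and in the next paragraph only describe it. Tumour 124 was 2-fold or more above every other tumour for 4 members, Mgst2, Slc7a11, Gclc and Gstm1 (9.30%, against 0.146% of all genes, 34). The gaps to the next tumour were 1.72, 1.36, 1.28 and 1.12, followed by 0.97 for Nqo1 and 0.90 for Pgd. The next tumour was 81 for Mgst2 and Slc7a11, 123 for Gclc and Pgd, 121 for Gstm1 and 121_T2 for Nqo1. Gstm1, a mu-class transferase, was 7.98 in tumour 124, 6.22 to 6.85 in the other tumours and 5.12 to 6.34 in adjacent livers. Of the marker means of tumour 124, the macrophage mean was 6.13 (other tumours 4.92 to 6.89) and the neutrophil mean 3.47 (3.46 to 4.36). The mean over 8 endothelial markers, 7.37, was the highest of all arrays (6.03 to 7.08 in the others). These 8 did not move together: between tumours and adjacent liver, 4 were higher and 2 lower at an unadjusted p under 0.05 (differences from -2.41 to 1.69). The part of endothelial cells was not tested.

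Counting members at least 2-fold from the adjacent mean, tumour 124 had 19 higher (44.2%, against 1.73% of all genes) and 0 lower (0.747%). Tumour 81 had 11 higher (3.8% of all genes) and 2 lower (3.12%). Tumour 121_T2 had 8 higher (2.56%) and 1 lower (1.07%). Tumour 123 had 6 higher (3.93%) and 4 lower (2.83%). Tumour 90 had 5 higher (4.03%) and 7 lower (4%), and 5 of the 7 were transferases. Tumour 121 had 4 higher (3.08%) and 2 lower (1.5%), and tumour 121_T3 had 4 higher (1.52%) and 1 lower (0.326%). Tumour 93 had none in either direction (0.619% and 0.219% of all genes). Nqo1 was among the members higher in tumours 124, 81, 123 and 121_T2, and Gss in tumours 124, 81, 121_T2 and 90.

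The mean over all members, minus the control mean, was 1.18 in tumour 124, 0.61 in tumour 81, 0.45 in tumour 121_T2, 0.31 in tumours 121, 121_T3 and 123, 0.24 in tumour 93 and 0.04 in tumour 90. Adjacent livers lay between -0.01 and 0.21. Tumours 90 and 93, the 2 lowest, differed in pattern. Tumour 90 was the lowest of the 8 for 19 members (44.2%; 15.5% of all genes), yet it had 7.01 for Slc7a11 and 9.18 for Gss, the fourth and the second highest tumour values of these genes. Tumour 93 kept all members within 2-fold of the adjacent mean. The 5 genes of glutathione synthesis and reduction had means, relative to controls, from 0.31 in tumour 121 to 2.65 in tumour 124, and 1.54, 1.44 and 1.06 in tumours 81, 123 and 90. Slc7a11 weighs heavily in these means: the medians over the 5 genes were 0.28, 0.50 and 0.41 in tumours 81, 123 and 90, and 1.56 in tumour 124. The 3 microsomal transferases ranged from -0.30 in tumour 90 to 2.23 in tumour 124. The mean over the 3 regulators, which joins Nfe2l2 with its inhibitor Keap1, ranged from 0.18 to 0.37. Singly, the tumours ranged from 0.21 to 1.03 for Nfe2l2, -0.44 to 0.14 for Keap1 and 0.10 to 0.58 for Sqstm1.

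The 3 tumours of mouse 121 show how far tumours of 1 liver differ. Their values spanned 1 or more for 10 of 43 members (23.3%, against 6.64% of all genes). The median span was 0.48 over members and 0.35 over all genes. Over the 6 mice these medians were 1.63 and 0.58, but a span over 6 values tends to exceed a span over 3. Gpx3 was 4.41, 6.52 and 7.65 in tumours 121_T2, 121 and 121_T3, and Nqo1 was 8.31, 6.70 and 6.40. For Gss (9.33, 8.49 and 8.10) and Slc7a11 (2.67, 3.42 and 4.29) the order of the same tumours was opposite. Gss spanned 1.23 within mouse 121 and 0.95 over the means of the 6 mice.

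Within the 4 mice with both tissues, 17 members (39.5%) were higher in the tumour than in its own adjacent liver in all 4, against 9.97% of all genes. Of these, 12 were not transferases (Nfe2l2, Nqo1, Ephx1, Slc7a11, Gss, Gsr, Pgd, Tkt, Txnrd1, Srxn1, Gpx2 and Gpx3) and 5 were (Gsta4, Gstm1, Gstm3, Gstm4 and Gstp1). Lower in all 4 were Gstt2, Gstk1 and Gstz1 (6.98%, against 13% of all genes). Slc7a11 was higher by 7.70 in mouse 124, 5.93 in mouse 81, 5.20 in mouse 123 and 0.59 in mouse 121. Nqo1 was higher by 2.84, 2.26, 2.59 and 1.12 in the same order, and Srxn1 by 2.68, 2.91, 2.16 and 0.51. Mouse 121, whose 3 tumours were averaged here, had the smallest difference for each of these 3 genes. Its Nqo1 was 8.31, 6.70 and 6.40 in tumours 121_T2, 121 and 121_T3, against 6.01 in its adjacent liver. Mgst2 was higher by 4.63 in mouse 124 and 2.81 in mouse 81, and differed by -0.01 and -0.26 in mice 123 and 121.

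**Figure D5:**
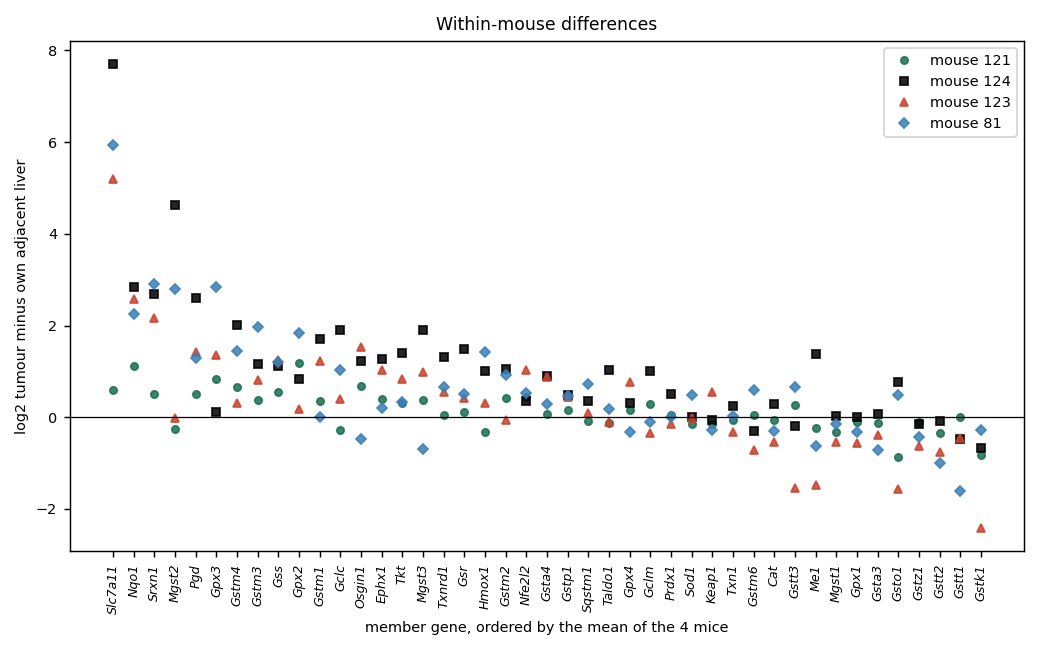
Log2 difference between tumour and adjacent liver of the same animal for each member, ordered by the mean over the 4 mice (the 3 tumours of mouse 121 averaged). Slc7a11 leads in mice 124, 81 and 123 (7.70, 5.93 and 5.20), and Gstk1 is below 0 in all 4.

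Further genes of the same systems were taken from lists of textbook members. Of 16 other NRF2 targets, 1 passed the adjusted p of 0.05 between tumour and adjacent liver, and 5 were higher and 1 lower at an unadjusted p under 0.05. The shares over all genes, which apply to each list here, were 0.155% passing, 6.95% higher and 8.32% lower. Cbr3, a carbonyl reductase, rose by 3.52 ± 0.62 on the log2 scale (adjusted p = 0.0464); its liver values lay near or below the array medians, so no fold is given. It was 3.76 to 3.94 in controls, 3.11 to 4.51 in adjacent livers and 9.62, 8.58, 7.43, 7.24, 6.10, 6.05, 5.46 and 5.30 in tumours 124, 81, 123, 121_T2, 93, 121, 121_T3 and 90, so that every tumour lay above every liver. Its call was kept without tumour 124, tumour 90 or tumour 93 and lost without any of the other 11 (adjusted p 0.0511 to 0.157); it was 0.0885 with the mouse as a fixed replicate block. The exporter Abcc4, which had the next smallest adjusted p of that list (0.0544) and was chosen after its values were seen, was 2.99 ± 0.56 higher, with tumour 124 again highest (9.56). Of 9 partners and regulators of NRF2, none had an unadjusted p under 0.05; Maff, a small MAF protein, and the repressor Bach1 differed by 0.47 ± 0.24 and 0.20 ± 0.17 (adjusted p = 0.371 and 0.623).

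Of 15 other peroxiredoxin, thioredoxin, glutaredoxin, dismutase and peroxidase genes, 1 passed, and 3 were higher and 1 lower at an unadjusted p under 0.05. Gpx7, a peroxidase of the endoplasmic reticulum, rose by 1.03 ± 0.17 on the log2 scale (limma, adjusted p = 0.0386). Its liver values lay near the array medians, where RMA compresses differences, so no fold is given. It was 4.50 to 4.90 in controls, 4.62 to 5.25 in adjacent livers and 5.44 to 6.37 in tumours, with no overlap. Its call was lost without tumour 121, tumour 123, control 10, control 11 or adjacent liver 123, 124, 1931 or 81 (adjusted p 0.0542 to 0.157), and with the mouse as a fixed replicate block (0.129). Of 11 genes of glutathione breakdown and cysteine supply, none passed; 1 was higher and 1 lower at an unadjusted p under 0.05. Slc3a2, the partner chain of the cystine carrier, was 0.94 ± 0.25 higher (adjusted p = 0.0941) and was highest in tumour 81 (9.11), which also had the second highest Slc7a11. Gnmt, a glycine methyltransferase, differed by -0.70 ± 0.34 (adjusted p = 0.354). Of 4 other transferases measured, none had an unadjusted p under 0.05; Gstm7 and Gstm5 differed by -0.17 and 0.16.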

How the data were processed

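RNA of 16 tissue samples was hybridised to one-colour arrays, 1 per sample. The deposited values are on a log2 scale. Per the submitters' processing notes, RMA and Partek were used, with no version given; the chip and the genome build: not given in the sources used here. RMA adjusts background, equalises array distributions and summarises probes, so dim genes are compressed. Of 24479 probe sets, 23281 had a single symbol and the remaining 1198, which did not, were left out. In all, 23279 genes were tested. The deposited values were used with no further normalization. The 3 tumours of mouse 121 were averaged, and the 3 groups were fitted together in limma 3.58.1 (R 4.3.3) with an intensity trend and Benjamini-Hochberg adjustment over all genes, with a threshold of 0.05. Standard errors come from the moderated fit. The titles number the mice, so spread is between mice; adjacent liver 1931 and tumour 93 were treated as different animals. The titles also pair tumour and adjacent liver of 4 mice: their deviations from group means correlated at 0.0349 to 0.0998, and those of other pairs at -0.328 to 0.317. Alternatives were the mouse as a block, other normalizations, a filter on dim genes, array weights, other choices of samples and each mouse left out. The scripts were tested on simulated data. Members and gene lists were chosen with earlier results of these data known. Named with values were members past the threshold, the member of each role with the largest difference between tumour and adjacent liver, Nfe2l2, Keap1 and Sqstm1, the 6 members with the largest gap of tumour 124, and of other lists those past the threshold or else the 2 with the largest difference; other members are given briefly by role. No scan date or batch is given in the labels.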

Additional observations from a re-analysis of the deposited data

Results flagged for a closer look

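In groups of 5 adjacent livers or 6 tumour mice, 13 of 86 groups of members held a value far from the rest by Dixon's criterion. About 1 in 20 would be flagged among independent, normally distributed values, but the members share the same arrays. The share over all genes was not computed, so the count only describes these members. Among tumours, tumour 124 was far above the others for Gclc (11.4), Gsr (9.30) and Gstm1 (7.98). Tumour 90 was far below them for Txn1 (7.75) and Prdx1 (9.43). Tumour 81 was far below for Osgin1 (7.47) and far above for Gpx2 (5.03). Among adjacent livers, that of mouse 123 was lowest for Keap1 (5.02) and Gstm1 (5.12). That of mouse 124 was lowest for Me1 (7.72) and Mgst3 (7.88) and highest for Gsto1 (8.21). That of mouse 1931 was highest for Gstk1 (10.2).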

How the results depend on the processing

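The number of arrays and the compression of dim genes limit all counts. Between tumour and adjacent liver, 36 genes passed; the number was 206 with mouse as a random replicate block, 0 with it as a fixed replicate block in 4 paired mice, 22 after quantile normalization, 16 after median centring, 181 with the filter on dim genes, 136 with array weights, 8 with only the 2 groups compared, 87 with 8 separate tumours, 157 with the unnumbered tumour of mouse 121 only, and 5 to 743 with a mouse left out. For tumour against control, 6 genes passed, and 24, 35, 3, 31 and 33 did with the random replicate block, the filter, no intensity trend, 8 tumours and the unnumbered tumour, and 0 to 242 with a mouse left out. For adjacent against control, 0 genes passed, and 0 to 1 with a mouse left out.

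The 13 members higher in tumours than in adjacent liver became 9 to 16 with a mouse left out (5.64% to 7.96% of all genes). The 4 lower ones became 2 to 9 in the same way (6.57% to 9.59%), or 7 with the unnumbered tumour (8.72%). The median member difference of 0.32 became 0.54 with the fixed replicate block, 0.22 with the filter (which kept 41 members) and 0.16 to 0.41 with a mouse left out. For adjacent against control, members higher were 7 and lower 2 with only the 2 groups (3.02% and 2.62% of all genes). With a mouse left out they were 0 to 2 and 1 to 2 (1.34% to 2.04% and 2.4% to 3.96%). For tumour against control with a mouse left out, members higher were 8 to 14 (3.87% to 6.56% of all genes). Members lower were 0 to 2 (4.69% to 8.04%), and the median was 0.11 to 0.34. Between tumour and adjacent liver, Gss passed in 10 of 24 alternatives, Cbr3 in 9 and Gpx7 in 13. Srxn1 passed in 6: the random replicate block (adjusted p 0.0425), the filter (0.0451), array weights (0.0418), the unnumbered tumour (0.0497), without tumour 90 (0.0444) and without tumour 93 (0.0146). Nqo1, Slc7a11 and Gstk1 passed in 1 each, without tumour 93 (0.0227, 0.0201 and 0.0445). The mean of tumour 90 changed sign, to -0.058, against the adjacent mean. Nfe2l2, Nqo1, Slc7a11, Gss, Pgd, Srxn1, Gstm4, Gstp1 and Gstk1 kept their direction and an unadjusted p under 0.05 in all 24 alternatives. Where no reason is given, the cause was not tested.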
